A study of Homo sapiens with 9 samples.

Results

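Gene expression was compared between M0 macrophage-like THP-1 cells given osimertinib and the same cells given vehicle. THP-1 is a human monocytic leukaemia line. Exposure to the phorbol ester PMA makes its cells adhere, slow their division and take on a macrophage-like form, called M0 where no polarising cytokine is added. All cells compared here, controls included, had been through that PMA step, so every level was read on top of phorbol ester signalling in 1 leukaemia line. The series holds 3 groups of 3 arrays, which the labels call separate biological replicates: vehicle, osimertinib at 100 nM and cisplatin at 0.5 µM, all with 16 h of treatment before RNA was taken. The comparison uses the 3 osimertinib and 3 vehicle arrays of the 9 in the series. All table rows with 1 gene symbol were taken, with the row of highest mean level for each gene. This gave 14884 genes. The brighter 7442, whose mean log2 level reached 4.28, were tested.

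Osimertinib binds a cysteine in the kinase pocket of the epidermal growth factor receptor, EGFR, and was designed against mutant forms of it in lung cancer. Receptor tyrosine kinases of this family signal through adaptors to the ERK and PI3K pathways, which drive immediate-early genes and growth. Macrophages clear debris and pathogens in their lysosomes, store and export lipid, and recruit other leukocytes with chemokines.

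EGFR itself read 2.73, 2.91 and 3.03 on the vehicle arrays and 2.98, 2.91 and 2.78 on the osimertinib arrays. All these log2 levels lie under the limit for testing, and the groups overlap. Of the kinases with a cysteine at the matching place, JAK3 was also under the limit. BTK, a kinase of B cells and myeloid cells, differed by -0.12 (adjusted p = 0.41), TEC by 0.18 (adjusted p = 0.399), and ERBB4 fell by 0.40 on the log2 scale (adjusted p = 0.0165). Among the adaptors that carry receptor signals to RAS, GRB2 rose by 0.50 and SHC1 by 0.48. ERBB4 was array-dependent: its call was lost without osimertinib replicate 2 or vehicle replicate 3, with an adjusted p of up to 0.0764.

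Of 12 monocyte and macrophage markers, 9 were named in the table and 7 lay above the limit. CD68 rose by 0.30 and CSF1R, the receptor for macrophage colony-stimulating factor, by 0.29, while CD14, SPI1, MSR1, CD36 and TYROBP did not pass the test. LYZ and CD163 read under the limit. The summed level of this marker list was 10.57 to 10.74 with vehicle and 10.82 to 10.91 with osimertinib, so the ranges did not overlap. Sums were taken on unlogged levels, so bright genes weigh most, among them CD68 and CSF1R at vehicle means of 9.44 and 8.57. The shift in this sum is therefore not separate from the calls of those genes. Markers of neutrophils (3 named), erythroid cells (1), fibroblasts (2) and endothelial cells (3) were all under the limit, although the summed neutrophil markers went from 4.37 to 4.45 with vehicle to 4.63 to 4.76 with osimertinib. Of the neutrophil markers, CSF3R read 3.32, 3.39 and 3.24 with vehicle and 3.68, 3.98 and 3.85 with osimertinib. The groups overlapped for CEACAM8, at means of 1.65 and 1.77. The summed T cell markers read 5.73 to 6.2 and 6.2 to 6.27. Among them CD4, which monocytes also carry, passed at 0.59, CD8A was at 0.01 and did not pass, and CD2 read under the limit. The summed NK cell markers read 7.12 to 7.17 and 6.99 to 7.1, with NCAM1 lower by 0.23, and the summed epithelial markers 7.8 to 8.13 and 7.61 to 7.8, with KRT18 lower by 0.30. With 1 array left out the calls of NCAM1 and KRT18 were lost at adjusted p-values of up to 0.137 and 0.15, and with the mean of its rows KRT18 was at -0.15 (adjusted p = 0.342). In a bulk sample, more cells of a type and more RNA per cell cannot be told apart, and the part of such shifts in the results was not tested.

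By limma with Benjamini-Hochberg adjustment over all 7442 genes, 2277 were called (30.6%), 1255 higher (16.9%) and 1022 lower (13.7%) with osimertinib. A further quantile normalization moved the higher calls from 55.1% to 68.3% of all calls. Most changes were small: 1597 called genes differed by less than 1.5-fold, and 680 (9.14%) by at least that, 351 higher (4.72%) and 329 lower (4.42%). At least 2-fold differences were found for 148 called genes, 59 higher and 89 lower, and at least 4-fold differences for 5. The median log2 difference of all tested genes was 0.037, and the median standard error was 0.108. The osimertinib arrays lay wholly above or wholly below the vehicle arrays for 3285 genes (44.1%), and every count of members given for a gene list is read beside these shares. A call is termed array-dependent where it was lost with at least 1 of the 6 arrays left out, as happened to 39 of the 280 called genes checked for this.

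**Figure D1:**
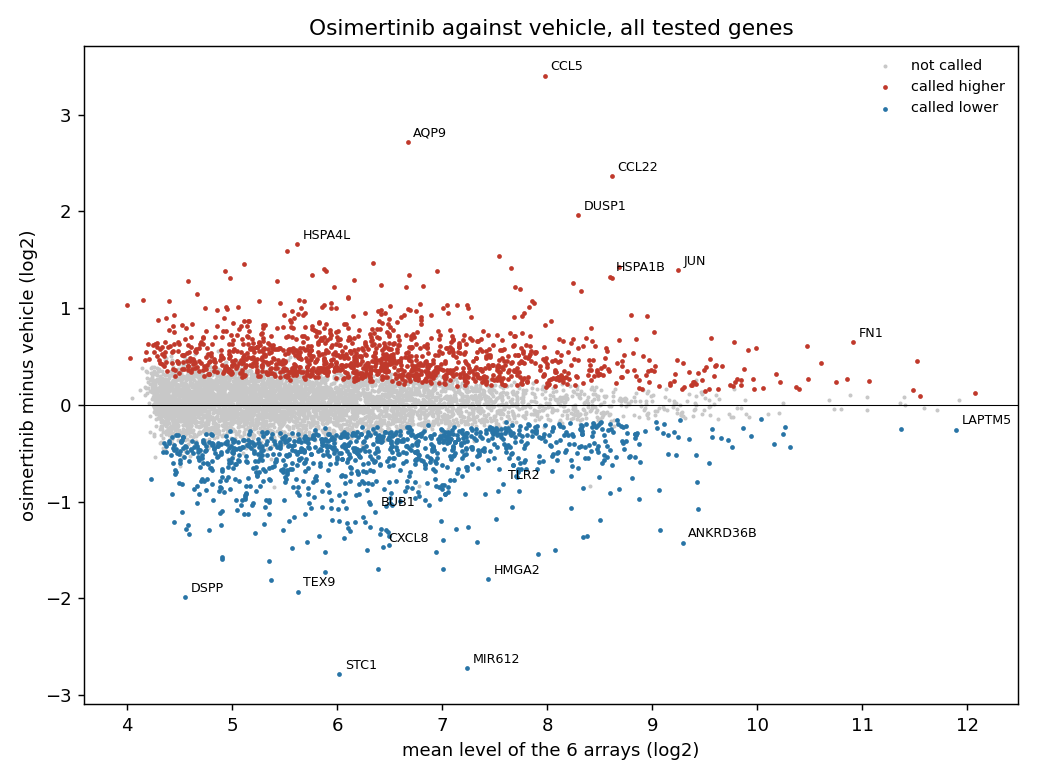
Osimertinib minus vehicle difference (log2, y axis) against the mean level of the 6 arrays (log2, x axis); each point is 1 of 7442 tested genes, red called higher, blue called lower, grey not called. CCL5, at 3.40, and STC1, at -2.79, are the extremes, and most red and blue points lie within 1 log2 unit of 0.

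The largest rise was in CCL5 (Entrez gene 6352), a chemokine that draws T cells, monocytes and other leukocytes. Its log2 levels were 6.28, 6.18 and 6.38 with vehicle and 9.70, 9.68 and 9.66 with osimertinib, a 10.6-fold difference (3.40, SE 0.060, adjusted p = 2.7e-13). The osimertinib arrays spread by less than the vehicle arrays, and the groups were far apart. AQP9 (Entrez gene 366), a channel for water and glycerol, read 5.09, 5.43 and 5.42 with vehicle and 8.05, 7.97 and 8.07 with osimertinib, 6.58-fold higher. CCL22 (Entrez gene 6367), a ligand of CCR4 on T helper and regulatory T cells, read 7.41, 7.35 and 7.54 against 9.83, 9.76 and 9.80, 5.14-fold higher. For both genes every treated array lay more than 2 log2 units above every control array.

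DUSP1 (Entrez gene 1843), a phosphatase that switches off MAP kinases, rose from 7.18, 7.31 and 7.45 to 9.28, 9.29 and 9.25, 3.89-fold. HSPA4L, a heat shock protein of the HSP110 family, rose from 5.07, 4.57 and 4.74 to 6.81, 6.38 and 6.16, 3.16-fold. Its groups did not overlap, though replicate 1 was the highest array of each. GALNT12, which starts mucin-type O-glycans, rose from 6.62, 6.84 and 6.87 to 8.41, 8.23 and 8.29, 2.90-fold. The alpha-arrestin ARRDC4, an adaptor that takes glucose transporters off the cell surface, rose by 1.47 and the metalloprotease-like gene AMZ2 by 1.58.

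IRF8, a transcription factor of monocytes and dendritic cells, rose from 5.14, 5.41 and 4.94 to 6.54, 6.59 and 6.59, 2.65-fold. ODC1, the rate-limiting enzyme of polyamine synthesis, rose from 7.03, 6.80 and 7.02 to 8.51, 8.41 and 8.16, 2.66-fold. In both, all treated arrays lay more than 1 log2 unit above all controls. Other large rises were in the sugar enzyme GALM (1.45), NES, which codes for the filament protein nestin (1.42), OLR1, a receptor of oxidised LDL (1.38), the bactericidal protein BPI (1.38), the Wnt receptor FZD8 (1.34), the NAD-synthesis enzyme QPRT (1.34) and the arginine methyltransferase PRMT6 (1.31). They ended, among the 25 largest, with the vacuolar sorting gene VPS18 (1.29), the adaptor SCIMP (1.28), the pro-resolving protein ANXA1 (1.28) and the succinate receptor SUCNR1 (1.24).

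The largest fall was in STC1 (Entrez gene 6781), a secreted glycoprotein hormone of calcium and phosphate balance. Its log2 levels were 7.32, 7.50 and 7.42 with vehicle and 4.44, 4.57 and 4.88 with osimertinib, 6.90-fold lower (-2.79, SE 0.109, adjusted p = 2.07e-09). No other tested protein-coding gene that was called fell as far, and the lowest vehicle array was 2 log2 units or more above the highest osimertinib array. HMGA2 (Entrez gene 8091), a chromatin-binding protein of dividing and embryonic cells, fell from 8.17, 8.47 and 8.38 to 6.35, 6.45 and 6.81, 3.49-fold. TEX9, a gene named for its expression in testis, fell from 6.61, 6.62 and 6.55 to 4.68, 4.57 and 4.74, 3.81-fold. DSPP, a matrix gene of dentin, fell from 5.58, 5.47 and 5.59 to 3.32, 3.38 and 3.98, and its osimertinib levels lie under the limit for testing. The groups of these genes did not overlap.

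The meiotic recombination genes MSH5 and MND1 fell 2.87-fold and 2.84-fold. With TEX9 they are the 3 lower members of 4 tested genes in the meiosis list, and 0 were higher. Of all tested genes 13.7% were lower. The list has 17 genes named and was written with earlier results of these data known, so its count restates these falls. The Notch effector HEY2 fell by 1.45, the opioid-peptide precursor PNOC by 1.52, and THBS1, the matricellular protein thrombospondin 1, by 1.33. CENPI, a centromere protein, fell by 1.35 and MCM8, a helicase of recombination repair, by 1.29. RGS13, a regulator of G protein signalling, fell by 1.30, and the lipid transfer gene OSBPL3 and the kinase NEK10 by 1.26 and 1.24. Several of the other large falls were in genes with near-identical copies elsewhere in the genome (ANKRD36B -1.42, NOTCH2NLA -1.37, NPIPB5 -1.30), or inside another gene (SUMO4, -1.34, in TAB2), and the array cannot assign those signals to 1 locus. The mean level also lay under the limit for testing with vehicle in BPI and SCIMP, and with osimertinib in NEK10.

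**Figure D2:**
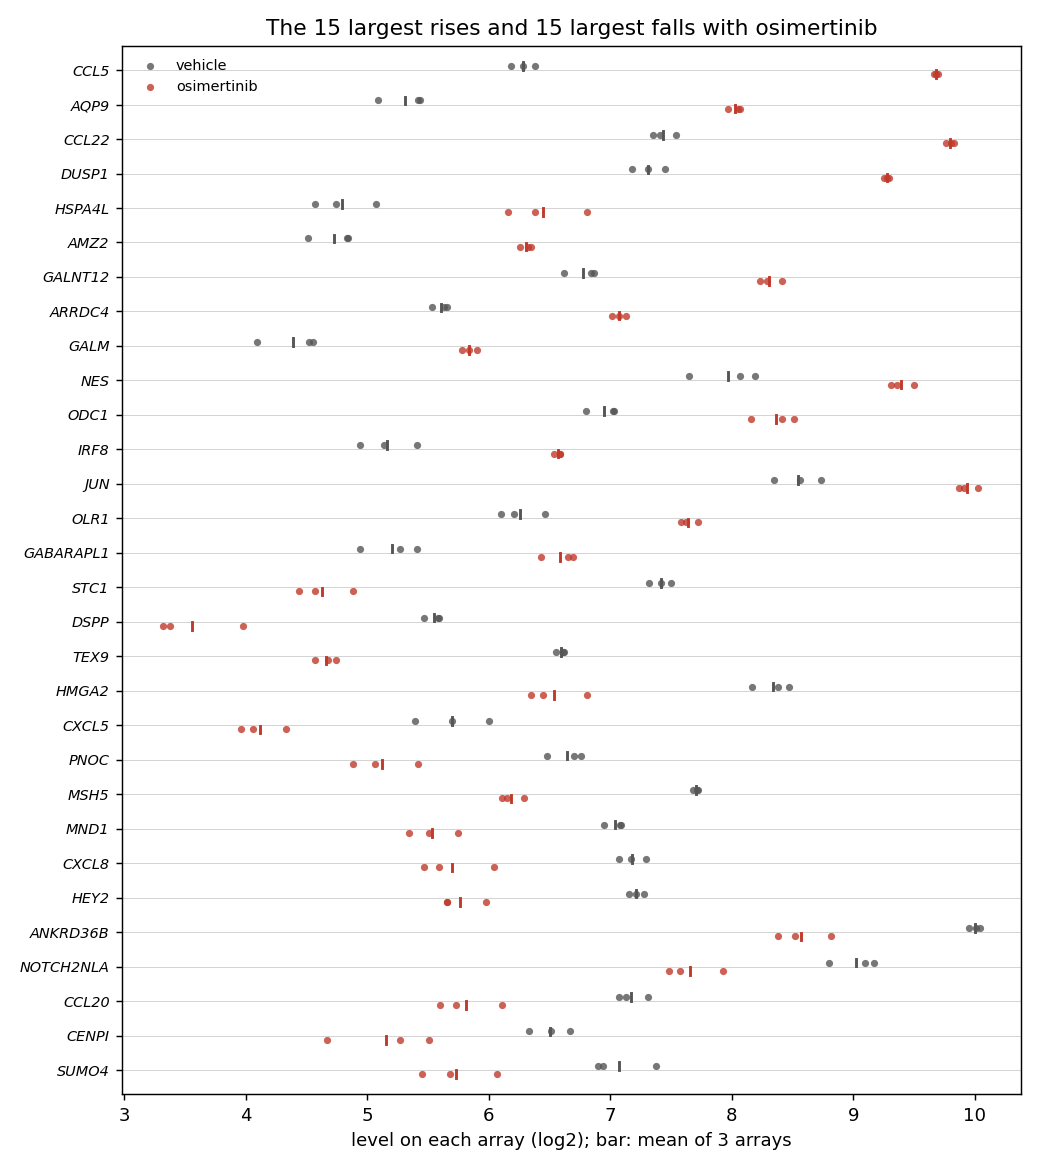
Log2 level (x axis) of the 15 largest rises and 15 largest falls on each vehicle (grey) and osimertinib (red) array; points are arrays and bars are means of 3. In all 30 genes the red points lie wholly on one side of the grey points, which is part of how the genes were chosen.

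Chemokines moved in both directions. Of 6 tested CC chemokines, 2 were higher (CCL5 and CCL22) and 1 was lower, CCL20, the ligand of CCR6, which fell from 7.07, 7.31 and 7.13 to 6.11, 5.60 and 5.73. Of 6 tested CXC chemokines 2 were lower and 0 higher, and both attract neutrophils through CXCR2. CXCL8 (interleukin 8) fell from 7.07, 7.17 and 7.29 to 6.04, 5.59 and 5.47, 2.78-fold (-1.47, SE 0.125). CXCL5 fell from 6.0, 5.70 and 5.39 to 3.96, 4.33 and 4.06, 2.98-fold (-1.58, SE 0.182), and its mean with osimertinib lies under the limit for testing. The lowest vehicle array stayed above the highest osimertinib array in each.

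Receptors for chemoattractants leaned lower, with 4 of 9 tested members lower and 1 higher. The complement C5a receptor C5AR1 fell from 7.43, 7.50 and 7.54 to 6.42, 6.66 and 6.61 (-0.92, SE 0.092), and its partner C5AR2 fell by 0.43. The scavenging receptor ACKR3 fell by 0.82 and the leukotriene B4 receptor LTB4R by 0.45, whereas CCR1, a receptor of CCL5, rose by 0.45. Cytokine receptors went the other way: 5 of 7 tested members were higher and 0 lower. These were the interferon gamma receptor chains IFNGR2 (0.51) and IFNGR1 (0.41), IL4R (0.49), IL17RA (0.35) and CSF1R. Of the 6 tested cytokine genes 0 were called. LTB4R and CCR1 were array-dependent, with highest adjusted p-values of 0.0644 to 0.08 with 1 array left out.

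Sensors of microbes changed little as a list, with 2 of 13 tested higher and 1 lower. The lower member was TLR2, the receptor for bacterial lipoproteins, which went from 8.0, 8.02 and 7.94 to 7.23, 7.16 and 7.10, 1.77-fold lower (-0.82, SE 0.062, adjusted p = 7.62e-07). RIPK2, a kinase downstream of NOD receptors, rose by 0.77 and the adaptor TICAM1 by 0.37. In the NF-kB list 2 of 13 fell, the interleukin-1 receptor-associated kinases IRAK2 (-0.61) and IRAK3 (-0.26), and BCL3 rose by 0.45. Of 13 type I interferon genes OASL (0.70), BST2 (0.56) and SAMD9 (0.25) rose and the ISG15-removing protease USP18 fell by 0.66. The vehicle mean of BST2, 4.16, lies under the limit for testing. In the interferon gamma list IRF8 and IRF1 (0.64) rose and GBP4 fell by 0.51 among 5 tested members. TICAM1, IRAK3 and SAMD9 were array-dependent, with highest adjusted p-values of 0.0612 to 0.131 with 1 array left out.

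Genes tied to alternative activation of macrophages were higher in 6 of 9 tested members and lower in 0. Apart from CCL22 they were the matrix protein FN1 (0.64), the lectin CD209 (0.67), the complement receptor VSIG4 (0.57), the checkpoint ligand PDCD1LG2 (0.62) and the transcription factor MAF (0.32). CD209 read 6.33, 6.45 and 5.99 with vehicle and 6.91, 6.96 and 6.91 with osimertinib, with no overlap. Of the 4 tested members of the classical activation list 0 were called, which is too few to compare the lists. Myeloid transcription factors were higher in 6 of 12 and lower in 1: beside IRF8 and MAF, TFEC (0.55), AHR (0.50), PPARG (0.35) and ZEB2 (0.22) rose, and RUNX1 fell by 0.37. LYN, a SRC-family kinase downstream of Fc receptors, rose from 7.23, 7.34 and 7.34 to 8.20, 8.35 and 8.20. MAF and ZEB2 were array-dependent, with highest adjusted p-values of 0.132 to 0.169 with 1 array left out.

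Uptake genes were mixed. Of 8 tested genes for engulfing dying cells 1 was higher, 2 were lower and 5 were not called. Over all tested genes 16.9% were higher and 13.7% lower. The bridging protein MFGE8 fell by 0.84 and the receptor tyrosine kinase MERTK by 0.52, both of which help cells engulf dying neighbours, while the large endocytic receptor LRP1 rose by 0.63. Among checkpoints of phagocytosis, the "do not eat me" proteins CD47 (-0.60) and CD24 (-0.85) fell and the inhibitory lectin SIGLEC10 rose by 0.43, out of 5 tested.

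Immediate-early genes, which answer growth factor and stress signals within minutes to hours, were higher in 7 of 15 tested members and lower in 0. JUN rose from 8.56, 8.73 and 8.35 to 9.91, 10.03 and 9.87, 2.62-fold (1.39, SE 0.082), and FOS rose by 0.85, JUNB by 0.58, EGR1 by 0.48, KLF6 by 0.44 and ATF3 by 0.27. DUSP1 was the seventh. Of the feedback and output genes of the ERK pathway 4 of 11 were higher and 2 lower. The ERK phosphatase DUSP6 rose from 9.71, 9.72 and 9.65 to 10.29, 10.28 and 10.26, and MYC rose from 4.87, 5.08 and 4.84 to 6.17, 5.81 and 5.98, 2.07-fold. DUSP5 rose by 0.28 and the RTK inhibitor SPRY2 by 0.17, and without osimertinib replicate 2 the count of higher members was 2. IER3 fell by 0.92 and SPRY4, another inhibitor of this signalling, fell from 7.27, 7.32 and 7.36 to 6.87, 6.98 and 6.81. Feedback genes of 1 pathway therefore moved in opposite directions on the same arrays. ATF3, DUSP5 and SPRY2 were array-dependent, with highest adjusted p-values of 0.0578 to 0.14 with 1 array left out.

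FOXO targets, held down by PI3K and AKT signalling, were higher in 4 of 8 tested members and lower in 0: CCNG2 (0.83), IRS2 (0.73), INSR (0.36) and BNIP3 (0.35). This count was 2 without osimertinib replicate 1. All vehicle levels of CCNG2 lie under the limit for testing. In the list of arrestins and glucose-sensing targets ARRDC3 rose from 6.90, 7.26 and 7.09 to 8.35, 8.33 and 8.23, and TXNIP by 0.25, beside ARRDC4. The nutrient-sensing RAG GTPase genes RRAGA (0.55), RRAGC (0.49) and RRAGD (0.42) were the 3 higher members among 14 tested genes of the PI3K, AKT and mTOR list, and 0 were lower. INSR, BNIP3, TXNIP, RRAGA and RRAGC were array-dependent, with highest adjusted p-values of 0.0506 to 0.195 with 1 array left out.

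In the list of heat shock proteins, chaperones that refold damaged proteins, and their partners, 10 of 12 tested members were higher and 0 lower. The list median was 0.60, against 0.037 for all tested genes. The 10 include the transcription factor HSF1 and the co-chaperone BAG3, and count HSPA1A and HSPA1B separately. HSPA1A read 7.90, 7.96 and 8.0 with vehicle and 9.20, 9.42 and 9.20 with osimertinib, 2.49-fold higher. Its near-identical copy HSPA1B read 2.51-fold higher, and their signals cannot be parted by probe. HSPH1, a nucleotide exchange factor for HSP70, rose from 8.49, 8.44 and 8.54 to 9.42, 9.42 and 9.40, and the small heat shock protein HSPB1 from 8.18, 7.90 and 7.99 to 8.70, 8.78 and 8.66. In none of these did the groups overlap. HSPA1L (0.75), HSPA4 (0.51), the heat shock factor HSF1 (0.41), BAG3 (0.34) and the mitochondrial HSPA9 (0.33) also rose.

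The promoters of heat shock genes were searched for the core of the heat shock element, GAANNTTC on both strands, in RefSeq windows (GRCh38.p14) from 250 bases before to 50 bases after the start. It was present in 4 of 10 promoters of the list (HSPA1A, HSPA1B, HSPA1L and HSPB1), against 4.25% of promoters of tested genes and 6.87% of all promoters. Over all called genes the core was in 4.58% of promoters of higher genes and 6.61% of promoters of lower ones, and among those at 1.5-fold or more in 3.85% and 9.52%. The 4 heat shock genes with a match rose, and so did others of the list without one in the window. The windows of HSPA1A (chr6:31815343-31815592, plus strand) and HSPB1 (chr7:76302473-76302722, plus strand) are shown from 200 bases before the start, with the match in capitals. The match begins 106 bases before the start in HSPA1A and 182 bases before it in HSPB1.
HSPA1A: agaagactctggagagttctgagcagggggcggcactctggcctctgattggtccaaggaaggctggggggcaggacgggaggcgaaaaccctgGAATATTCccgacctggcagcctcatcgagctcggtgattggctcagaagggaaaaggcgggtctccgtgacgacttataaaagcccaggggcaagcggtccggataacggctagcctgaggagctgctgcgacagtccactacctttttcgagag
HSPB1: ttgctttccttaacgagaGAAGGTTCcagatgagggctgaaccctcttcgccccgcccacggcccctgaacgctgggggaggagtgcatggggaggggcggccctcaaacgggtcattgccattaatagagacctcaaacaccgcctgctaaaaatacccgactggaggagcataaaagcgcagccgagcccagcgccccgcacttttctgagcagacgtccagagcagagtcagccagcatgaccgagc

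Co-chaperones were higher in 4 of 18 tested members, led by PPIF (0.68), PTGES3 (0.55) and STIP1 (0.35), and 0 were lower. That higher count is near the 16.9% of all tested genes called higher, and the list median was 0.10. Genes of the unfolded protein response were higher in 4 of 12, SDF2L1 (0.47), SEL1L (0.46), HYOU1 (0.26) and CANX (0.16), and lower in 0. Targets of ATF4, the factor of the amino acid response, were higher in 5 of 13: PSAT1, an enzyme of serine synthesis, rose from 6.10, 6.18 and 6.31 to 7.33, 7.04 and 7.18, and SESN2 (0.87), PHGDH (0.56), SHMT2 (0.40) and ATF3 followed. Aminoacyl-tRNA synthetases, which charge tRNAs with amino acids, were higher in 9 of 18 and lower in 1. Their median was 0.28, with AARS1 at 0.58, NARS1 and KARS1 at 0.46 and RARS1 at 0.44, and QARS1 fell by 0.21. The call of CANX was lost with median centring, with quantile normalization and without variance trend and robust fitting, at adjusted p-values of 0.0608, 0.109 and 0.109. ATF3 and QARS1 were array-dependent, with highest adjusted p-values of 0.14 to 0.166 with 1 array left out.

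Genes of the list of NRF2, a factor that controls antioxidant genes, were higher in 9 of 16 tested members and lower in 0, with a median of 0.23. SRXN1, which repairs peroxiredoxins, rose from 5.21, 5.43 and 5.26 to 6.18, 6.17 and 5.93, and PGD, an NADPH source, from 8.04, 8.26 and 8.16 to 8.71, 8.85 and 8.71. KEAP1, the repressor of NRF2, rose by 0.58, PRDX1 by 0.41, TXNRD1 by 0.32, TXN by 0.31 and the haem oxygenase HMOX1 by 0.16. The treated arrays of SRXN1 and PGD lay wholly above the controls. Without osimertinib replicate 1 the count of higher members was 5. TXN and HMOX1 were array-dependent, with highest adjusted p-values of 0.0619 to 0.091 with 1 array left out.

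Lysosomal hydrolases were higher in 9 of 20 tested members and lower in 3. The cathepsin CTSZ rose from 6.54, 6.67 and 6.67 to 7.63, 7.71 and 7.63, 2.04-fold, and acid ceramidase ASAH1 by 0.80, CTSO by 0.54, GM2A by 0.51 and CTSS, which trims antigens for MHC class II, by 0.37. In the opposite direction CTSW fell from 6.67, 6.97 and 6.98 to 5.90, 5.44 and 5.65, the collagen-degrading CTSK fell by 0.79 and TPP1 by 0.17. Of 8 tested genes of the proton pump and lysosomal membrane 5 rose, led by the channel TPCN1 (0.57), and 2 fell, LAPTM5 (-0.26) and the channel MCOLN1 (-0.25). CTSO, TPP1 and MCOLN1 were array-dependent, with highest adjusted p-values of 0.0538 to 0.079 with 1 array left out.

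The autophagy list held 8 higher and 2 lower members of 22 tested. GABARAPL1, an ATG8-family protein that coats autophagosomes, rose from 4.94, 5.27 and 5.41 to 6.65, 6.43 and 6.69, while its relative GABARAP fell by 0.98 and another relative, GABARAPL2, rose by 0.50. The cargo receptors TAX1BP1 (0.51) and SQSTM1 (0.43) rose, as did RB1CC1 (0.41) and ATG3 (0.41), while the E1-like enzyme ATG7 fell by 0.66. Members of 1 conjugation pathway thus differed in sign.

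Lipid genes leaned higher. In the list of cholesterol synthesis 6 of 23 tested members were higher and 0 lower. ACLY, which makes cytosolic acetyl-CoA, led them, from 8.25, 8.27 and 8.48 to 9.24, 9.33 and 9.21, followed by MVD (0.54), INSIG1 (0.46), NSDHL (0.45), INSIG2 (0.45) and FADS1 (0.34). Of 7 tested genes of LXR and lipid efflux APOC1 (0.99), APOE (0.72) and LPL (0.47) rose. In fat storage and oxidation 10 of 22 were higher and 1 lower, with the lipid droplet coats PLIN2 (0.68) and PLIN3 (0.58), ETFDH (0.50) and the acyl-CoA synthetases ACSL4 (0.46) and ACSL1 (0.40) among the higher and ACSL5 (-0.26) lower. Without osimertinib replicate 1 the count of higher members fell to 5. INSIG2, ETFDH and ACSL5 were array-dependent, with highest adjusted p-values of 0.0538 to 0.146 with 1 array left out.

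Sugar and energy genes gave small numbers of calls. The hexokinases HK2 and HK3, which trap glucose in the cell, rose: HK2 read 7.39, 7.29 and 7.36 with vehicle and 8.39, 8.44 and 8.38 with osimertinib, 2.08-fold higher, and HK3 differed by 1.08, with vehicle levels under the limit. GAPDH fell by 0.38, from 5.52, 5.84 and 5.74 to 5.23, 5.43 and 5.30, so of 10 tested genes of glycolysis 3 were higher and 1 lower. The median tested gene read 5.701 to 5.727 on the vehicle arrays. Whether the 1 GAPDH row reads the main transcript was not tested. Of 15 tested hypoxia targets 6 were higher and 0 lower, among them ADM (0.78) and the oxygen sensor EGLN1 (0.49), and 3 were higher without osimertinib replicate 1. The mitochondrial ribosome had 10 higher and 3 lower of 62 tested, at a median of 0.11, and 4 higher without osimertinib replicate 1. The shares of the mitochondrial ribosome are below those of all tested genes, and the respiratory chain, with 2 higher and 2 lower of 13, gave no lean either way. GAPDH was array-dependent: its call was lost without osimertinib replicate 1 or vehicle replicate 2, with an adjusted p of up to 0.0694.

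Genes of cell division were lower. In mitosis 20 of 37 tested members were lower and 1 was higher, with a median of -0.32, and among kinesins, centromere and condensin genes 19 of 25 were lower and 0 higher, with a median of -0.42. The mitotic kinase BUB1 fell from 6.88, 6.93 and 6.93 to 6.20, 5.47 and 5.75, 2.15-fold, and PLK1, which drives entry into and exit from mitosis, from 6.97, 7.10 and 7.08 to 6.30, 6.34 and 6.31, 1.67-fold. KIF15, a spindle motor, fell from 6.24, 6.27 and 6.26 to 5.46, 5.25 and 5.19, 1.94-fold. In each the highest osimertinib array was below the lowest vehicle array. KNL1 (-0.86), SGO1 (-0.81), TOP2A (-0.69), PRC1 (-0.68), BUB1B (-0.67), CCNB1 (-0.57), KIF11 (-0.51) and the proliferation marker MKI67 (-0.49) also fell. AURKA, a centrosome kinase, was the exception, rising from 6.32, 6.26 and 6.25 to 6.73, 6.70 and 6.77. The mitosis count was 13 without osimertinib replicate 3. In both lists 0 members were called between osimertinib and cisplatin. Of all tested genes 1.75% were, so lists of this size would hold few or no such calls.

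Genes of the G1/S transition and replication licensing were lower in 11 of 30 tested members and higher in 1, with a median of -0.18. The atypical E2F repressors E2F8 and E2F7 fell by 0.93 and 0.85, the kinase CDC7 by 0.79 and the helicase subunit MCM4 by 0.55, whereas SLBP, the histone mRNA binding protein, rose by 0.57. In the DNA damage list 9 of 28 were lower and 1 was higher. RAD54L fell from 5.63, 5.45 and 5.68 to 4.66, 4.81 and 4.77, RAD54B by 0.65, XRCC2 by 0.57 and the checkpoint kinase CHEK1 by 0.44, and RAD17 rose by 0.51. In the p53 list, 4 of 17 were higher, CD82 (1.10), SESN2, RRM2B (0.84) and CCNG1 (0.73), and 3 lower, PLK2 (-0.53), FBXO22 (-0.46) and GDF15 (-0.33). Of all tested genes 16.9% were higher and 13.7% lower. With the mean of its rows FBXO22 was at -0.18 and lost its call (adjusted p = 0.162).

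Promoters of mitotic genes often carry the CHR element, TTTGAA, near a CCAAT box, CCAAT, and both motifs were searched on both strands in the same RefSeq windows. A CHR and a CCAAT box can share an end base, and each was counted once per promoter. CHR letters were present in 21 of 30 mitosis promoters (70.0%) and 15 of 23 kinesin, centromere and condensin promoters (65.2%), but in 2 of 25 G1/S promoters (8.0%), against 10.0% of 5861 tested promoters and 15.4% of all 27305. CCAAT letters were present in 83.3%, 69.6% and 68.0% of the same lists, against 36.9% of tested promoters. Of the lower members with a promoter, 14 of 18 mitosis genes and 11 of 17 kinesin, centromere and condensin genes held CHR letters, and 0 of 9 G1/S genes did. Over all genes, the CHR share was 15.5% among called lower and 9.35% among called higher genes.

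The promoters of 4 such genes are shown from 100 bases before to 50 bases after the start, because all 4 genes fell and each window places the 2 motifs a short way apart. They are PLK1 (chr16:23678789-23678938, plus strand), PRC1 (chr15:90994486-90994635, minus strand), KIF11 (chr10:92593030-92593179, plus strand) and CCNB2 (chr15:59105046-59105195, plus strand). Capitals mark TTTGAA and CCAAT or their reverse complements, as in KIF11. The CHR letters begin 29, 20, 28 and 29 bases before the start, in that order, and the nearest CCAAT letters 73, 53, 53 and 54 bases before it.
PLK1: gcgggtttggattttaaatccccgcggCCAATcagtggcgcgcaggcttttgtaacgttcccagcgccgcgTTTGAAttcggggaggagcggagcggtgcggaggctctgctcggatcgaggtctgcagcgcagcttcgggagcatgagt
PRC1: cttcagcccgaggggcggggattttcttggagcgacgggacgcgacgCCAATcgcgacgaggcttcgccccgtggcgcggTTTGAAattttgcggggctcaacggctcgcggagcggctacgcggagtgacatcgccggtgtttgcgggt
KIF11: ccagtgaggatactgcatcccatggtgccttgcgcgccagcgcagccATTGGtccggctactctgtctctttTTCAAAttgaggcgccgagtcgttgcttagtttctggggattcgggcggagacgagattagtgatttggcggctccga
CCNB2: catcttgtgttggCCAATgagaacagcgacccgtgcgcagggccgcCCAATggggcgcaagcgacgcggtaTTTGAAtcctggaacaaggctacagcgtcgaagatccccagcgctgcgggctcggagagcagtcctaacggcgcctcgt

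These genes fell by unequal amounts. PRC1 went from 6.38, 6.56 and 6.66 to 5.92, 5.82 and 5.81, KIF11 from 7.51, 7.55 and 7.39 to 7.18, 6.87 and 6.86, and CCNB2 from 5.18, 5.37 and 5.40 to 4.94, 4.78 and 4.92. The adjusted p was 1e-04 for PRC1, 0.00103 for KIF11 and 0.0267 for CCNB2, whose groups did not overlap. CCNB2 was array-dependent: its call was lost without osimertinib replicate 2, vehicle replicate 2 or vehicle replicate 3, with an adjusted p of up to 0.092.

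**Figure D3:**
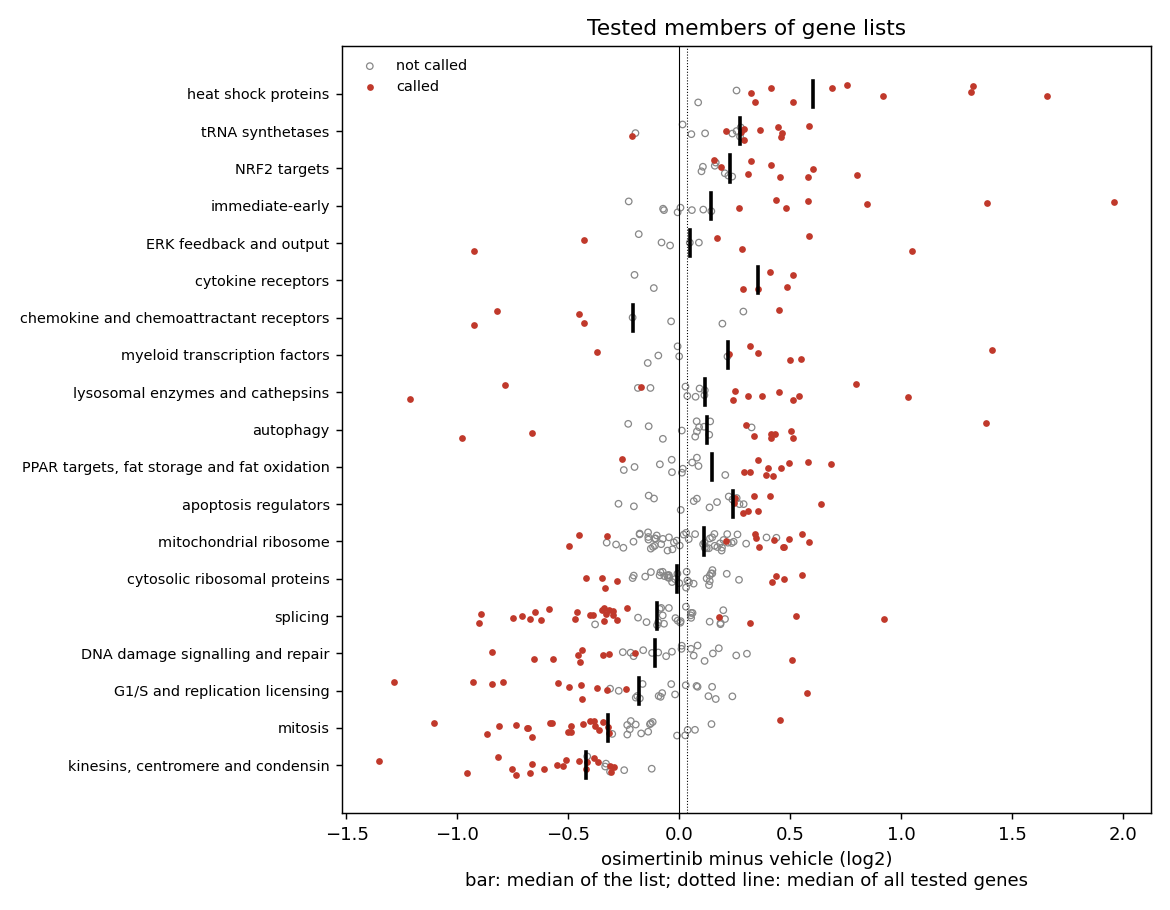
Osimertinib minus vehicle difference (log2, x axis) of the tested members of 19 gene lists (rows); red points are called genes, open points are not called, bars are list medians and the dotted line is the median of all tested genes, 0.037. Heat shock proteins have a median of 0.60, mitosis -0.32 and kinesins, centromere and condensin -0.42.

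Splicing factors were lower in 21 of 49 tested members and higher in 4, with a median of -0.10. HNRNPC and HNRNPA1, which coat nascent transcripts, fell by 0.90 each, CLK4, a kinase of SR proteins, by 0.75, SRSF7 by 0.71 and HNRNPR by 0.67, while HNRNPA0 rose by 0.92 and HNRNPL by 0.52. HNRNPA1 and HNRNPC have many processed copies, so their signals may not be specific. Ribosome biogenesis was divided: 8 of 33 tested members rose, led by FBL (0.78) and GRWD1 (0.75), and 6 fell, among them NCL (-0.32) and DDX56 (-0.37). The lower count was 2 without osimertinib replicate 2 and 3 without vehicle replicate 2. Over all tested genes 16.9% were higher and 13.7% lower. In the MYC and polyamine list 8 of 25 rose and 2 fell. Beside ODC1 and MYC, the antizyme OAZ2 (0.62) and the polyamine-breaking SAT1 (0.59) rose, and SMS, spermine synthase, fell by 0.38. The higher count was 5 without osimertinib replicate 1. DDX56 was array-dependent: its call was lost without osimertinib replicate 2 or vehicle replicate 2, with an adjusted p of up to 0.0828.

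Chromatin factors were lower in 7 of 34 tested members and higher in 4, against 13.7% lower and 16.9% higher of all tested genes. Beside HMGA2, the lamin LMNB1 fell by 0.80, the deacetylase HDAC9 by 0.57 and the maintenance methyltransferase DNMT1 by 0.55. The sister lamin LMNB2 rose by 0.58 and the deacetylase SIRT1 by 0.62. Regulators of apoptosis were higher in 8 of 22 and lower in 0, led by FADD (0.64), BID (0.41) and MCL1 (0.34), with pro-survival and pro-death genes both among them. That count was 3 to 5 with any 1 array left out: 4, 5 and 4 without osimertinib replicates 1, 2 and 3, and 4, 5 and 3 without vehicle replicates 1, 2 and 3. BID was array-dependent: its call was lost without osimertinib replicate 1 or vehicle replicate 3, with an adjusted p of up to 0.0615.

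The 10 called protein-coding genes with the highest vehicle level differed by 0.09 to 0.64 in size. LAPTM5, a lysosomal membrane protein of leukocytes, read 12.05, 12.05 and 11.97 with vehicle and 11.79, 11.77 and 11.74 with osimertinib, 1.19-fold lower. SPP1, the secreted protein osteopontin, fell by 0.25, and PPT1, a lysosomal thioesterase, rose by 0.45. FN1 went from 10.55, 10.59 and 10.63 to 11.21, 11.29 and 11.21. YBX1 (0.09), APLP2 (0.15), CTSD (0.25), EEF2 (0.27) and PSAP (0.24) rose and RLF fell by 0.43. Without variance trend and robust fitting APLP2, PSAP and YBX1 lost their calls, with adjusted p-values of 0.122, 0.0627 and 0.356. YBX1 also lost its call without any 1 of the 6 arrays, with an adjusted p of up to 0.086.

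To see where the osimertinib response differed from that to another drug, the difference between the drugs was tested directly. Of 7442 genes, 130 (1.75%) were called between osimertinib and cisplatin, 57 higher and 73 lower with osimertinib, and 99 of them (1.33%) were also called against vehicle. This count was 76, 75 and 76 without osimertinib replicates 1, 2 and 3, 67 without cisplatin replicate 2 and 54 without cisplatin replicate 3. Doses differ, and the drugs share the vehicle arrays, so values are given side by side. ARRDC3 was 1.22 above vehicle with osimertinib and 0.03 with cisplatin, a difference of 1.19 (adjusted p = 4.08e-05). The phosphodiesterase GPCPD1 was at 1.08 and 0.05, the peptidase-like PREPL at 0.76 and 0.03, and CCNG2 at 0.83 and 0.03. All vehicle levels of CCNG2 and its cisplatin mean of 4.23 lie under the limit for testing. HSPA4L was at 1.66 and 0.25, a difference of 1.41 (adjusted p = 0.000477), ODC1 at 1.41 and 0.41, GALNT12 at 1.54 and 0.70 and PPDPF at 1.23 and 0.39.

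Lower with osimertinib than with cisplatin were STC1, at -2.79 and -1.11 against vehicle, a difference of -1.67 (adjusted p = 5.84e-06). The 3 cisplatin arrays of STC1 hold 1 equal value, which makes its spread look too small. The collagenase MMP1 read 5.13, 4.97 and 5.06 with vehicle and 4.14, 3.87 and 3.51 with osimertinib, against a mean of 5.18 with cisplatin, so all its osimertinib levels lie under the limit for testing. CXCL8 (-1.47 and -0.49), CCL20 (-1.36 and -0.58), the sialic acid lectin CD22 (-0.98 and -0.06), NRIP3 (-0.92 and -0.01), IGFBP3 (-0.99 and -0.12) and TFPI2 (-0.99 and -0.27) were lower in the same way. The call between the drugs was lost for CCNG2, TFPI2 and SPRY4 with some array left out, with adjusted p-values up to 0.118, 0.163 and 0.0521. TLR2 was at -0.82 and -0.16 (difference -0.66, adjusted p = 8.71e-05) and SPRY4 at -0.43 and 0.07 (difference -0.49, adjusted p = 0.00838). By contrast CCL5 was lower with osimertinib than with cisplatin by 0.45 although it rose with both. For AQP9, JUN and HSPA1A the difference between the drugs was 0.09, -0.02 and 0.05 and did not pass the test. DUSP1 was at 1.96 against vehicle with osimertinib and 2.09 with cisplatin, CCL22 at 2.36 and 2.49, and BUB1 at -1.11 and -0.87. Between the drugs 0 members were called in the mitosis, kinesin, G1/S, DNA damage, splicing and autophagy lists. At the 1.75% called among all tested genes, lists of this size would hold few or no calls. Among heat shock proteins 1 of 12 was called and among CC chemokines 3 of 6, against 1.75% of all tested genes.

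**Figure D4:**
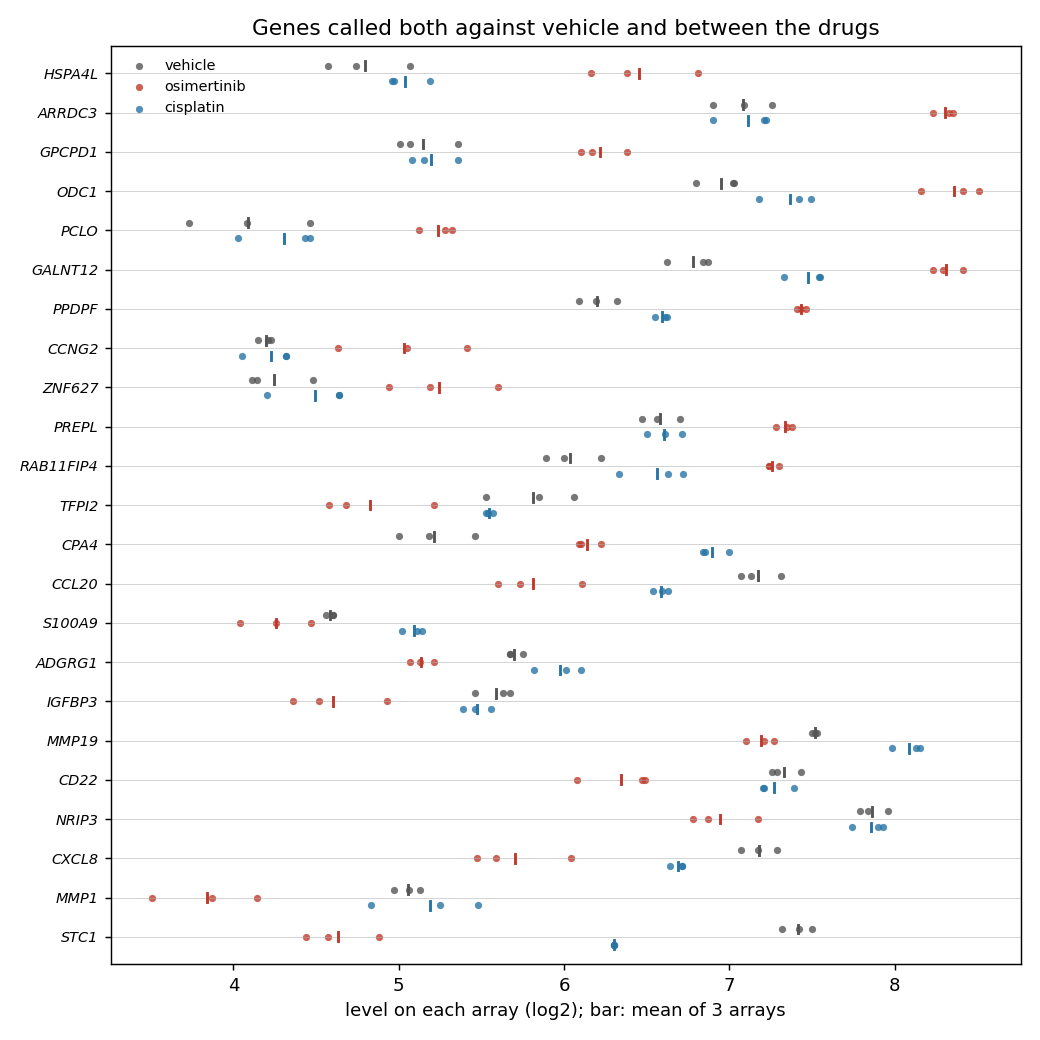
Log2 level (x axis) of protein-coding genes with the largest differences between the drugs, on each vehicle (grey), osimertinib (red) and cisplatin (blue) array; bars are means of 3 arrays. For ARRDC3, GPCPD1, PREPL, NRIP3 and CD22 the blue points lie among or beside the grey ones while the red points stand apart.

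Calls among lncRNAs, transcribed pseudogenes and microRNA genes were mostly lower ones. There were 71 lower and 17 higher genes among 256 lncRNAs, 32 lower and 13 higher among 123 transcribed pseudogenes, and 54 lower and 11 higher among 252 microRNA genes, whereas 863 of 6778 protein-coding genes were lower and 1205 higher. Of 18 genes annotated as other ncRNA 6 were higher and 1 was lower. Over all table rows the array medians were 3.35 to 3.37 with vehicle and 3.29 to 3.32 with osimertinib. These classes were not recounted under another scaling, and the part of that offset in their counts was not tested. The array rows of microRNA genes read the primary or hairpin transcript, or a host gene around it, not the mature microRNA. The largest fall of this kind was MIR612, from 8.32, 8.70 and 8.77 to 5.70, 5.84 and 6.08, 6.60-fold. MIR221 fell from 6.27, 6.32 and 6.68 to 5.06, 5.06 and 4.87, with no overlap.

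A microRNA binds its targets mainly through its seed, bases 2 to 8, and called microRNA genes that share a seed are shown with the seed in capitals (mature sequences from RefSeq, GRCh38.p14). They were chosen after their values were seen. MIR221 and MIR222 lie close together on chromosome X, share a seed and both fell, by 1.42 and 1.00. MIR98 and MIR4500 carry the let-7 seed and fell by 0.79 and 1.09. MIR21, a microRNA much studied in macrophages and tumours, rose by 0.86, whereas MIR590, whose 5p arm has the same seed, fell by 1.12.
hsa-miR-221-3p: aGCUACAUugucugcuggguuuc
hsa-miR-222-3p: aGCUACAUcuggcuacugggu
hsa-miR-98-5p: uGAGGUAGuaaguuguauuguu
hsa-miR-4500: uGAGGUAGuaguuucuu
hsa-miR-21-5p: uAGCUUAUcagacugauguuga
hsa-miR-590-5p: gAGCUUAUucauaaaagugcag
The levels of MIR21 were 4.73, 4.51 and 4.81 with vehicle and 5.60, 5.29 and 5.74 with osimertinib, and those of MIR590 were 5.63, 5.43 and 5.29 against 4.37, 3.92 and 4.68. The groups of both lay apart, in opposite directions. MIR98 was array-dependent: its call was lost without osimertinib replicate 1, osimertinib replicate 2 or vehicle replicate 1, with an adjusted p of up to 0.0549.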

How the data were processed

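Total RNA of 9 cultures was measured, each on 1 Affymetrix Human Gene 2.0 ST array (3 a group). Per the labels, the service provider ran standard Affymetrix pipelines to gene-level values, and per the submitters' processing notes Affymetrix Power Tools was used, of unstated version. The deposited values were read as log2, since all lie between 0.65 and 13.17; how background was corrected and probes summarized, and which log base applies, is not given in the sources used here, and another base would change every fold but no call. The columns differed by an SD of 0.0329 at equal ranks, so the arrays look to have been normalized against each other by the authors, and differences are relative to the bulk of transcripts. Depth does not apply to arrays; their number limits the precision.

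Of 53617 rows, the platform annotation, which can be old, gives 1 gene for 16098, several for 0 and none for 37519. The 16098 Entrez identifiers were all found in RefSeq (GRCh38.p14). Of 14884 genes 779 had several rows, and the one with the highest mean was used. limma 3.58.1 in R 4.3.3 fitted 1 mean per group over 9 arrays (empirical Bayes with trend and robust fitting, 6 residual degrees of freedom). Two-sided p-values were Benjamini-Hochberg adjusted over the 7442 genes with a mean level of 4.28 or more, and called under 0.05. SEs are moderated. Exact ties occur: in 207 tested genes the 3 arrays of some group read the same. The fit was tested on simulated data. The vehicle arrays serve both drugs. Whether replicate cultures were grown separately is known only from the word biological in the labels; p-values measure the spread between these samples.

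The members, lists and rules were chosen with earlier results of these data known. Genes named are the 25 largest rises and falls among called protein-coding genes whose groups do not overlap, without provisional symbols. To these come up to 6 members of each list with the smallest p, and every called member where there are at most 8; the 10 called protein-coding genes with the highest vehicle level; the 12 largest differences each way between the drugs among genes called in both contrasts; fixed genes for the drug target, signalling and macrophage identity; and up to 8 non-coding RNAs. Not every gene these rules yield is named. The promoter examples, TLR2 and SPRY4 in the comparison with cisplatin, and some further list members were chosen after their values were seen. The alternatives were other filters, scalings, variance settings, row choices, a replicate block and each array left out; leaving out cisplatin arrays was added later. Same-numbered osimertinib and vehicle arrays did not deviate together (correlations -0.06, 0.06 and 0.02 over 7442 genes), so the numbers were not taken as pairs.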

Additional observations from a re-analysis of the deposited data

Results flagged for a closer look

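Genes called against vehicle in opposite directions for the drugs, and called between the drugs, number 5. The matrix protease MMP19 was -0.32 against vehicle with osimertinib and 0.57 with cisplatin, and its difference between the drugs was -0.89 (adjusted p = 2.89e-05). The adhesion receptor ADGRG1 was at -0.56 and 0.28, with a difference of -0.84 (adjusted p = 0.000477). The calprotectin subunit S100A9 was at -0.33 and 0.50, with a difference of -0.83 (adjusted p = 0.00201). PLXDC2, a transmembrane protein, was at 0.25 and -0.23, with a difference of 0.49 (adjusted p = 3.34e-05), and the zinc finger gene ZNF740 at 0.26 and -0.24, with a difference of 0.50 (adjusted p = 0.00829). Both drugs are set against the same vehicle arrays, and the test between the drugs does not use those arrays' means. The cisplatin calls of ADGRG1 and ZNF740 against vehicle were near the threshold, with limma adjusted p-values of 0.0444 and 0.046. The osimertinib calls of S100A9 and ZNF740 against vehicle were array-dependent, with adjusted p-values up to 0.196 without osimertinib replicate 2 and 0.0908 without osimertinib replicate 1.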

How the results depend on the processing

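The counts of called genes kept their size within 1.5 times under most alternatives: 2166 to 2937 with other scalings, row choices, variance settings and no filter, 1690 of 3721 genes with the stricter filter, and 1828 to 2036 with 1 array left out. A further quantile normalization gave 2005 higher genes and 932 lower ones, and median centring 1258 and 1332. The counts with 1 array left out ranged from 923 to 1194 higher and from 801 to 964 lower; without osimertinib replicate 1 the higher share of calls was 48.9%, against 55.1%. Genes at 1.5-fold or more numbered 418 with the stricter filter. The count between the drugs, 130, was 239 with median centring, 218 with quantile normalization, 76 without a filter and 63 without variance trend and robust fitting, and it ranged from 54 to 147 with 1 of the 9 arrays left out. The replicate block gave 2145 calls, 1174 higher and 971 lower, and 108 between the drugs; the array numbers do not pair these samples.

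SPI1, at 0.00, turned to 0.04 with quantile normalization, 0.02 without osimertinib replicate 3 and 0.05 without vehicle replicate 2 (range -0.03 to 0.05 with 1 array left out). TYROBP went from 0.17 to -0.01 without osimertinib replicate 1 (range -0.01 to 0.30), and TSPAN3 from 0.63 to -0.63 with the mean of its rows; CD8A, at 0.01, turned to -0.02 with median centring (range -0.09 to 0.16 with 1 array left out). The cause was not tested. List counts that moved by over 1.5 times with another scaling or filter were, among others, 13 lower mitosis members with quantile normalization and 10 with the stricter filter, 10 lower kinesin, centromere and condensin members with the stricter filter, and 20 higher members of the mitochondrial ribosome with quantile normalization.

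Apart from arrays left out, named genes lost calls with the mean of rows (FBXO22, IRAK3, KRT18), with the replicate block (ALOX5, ATF3, NCAM1, PTGER4, S100A9, ZEB2, ZNF740), with quantile normalization (ALOX5, CANX, CCNB2, CYSLTR1, KRT18, NCAM1, S100A9, YBX1), with median centring (BNIP3, CANX, YBX1, ZEB2) and with the 6 arrays fitted alone (BNIP3, S100A9). Without a level filter they were ATF3, BNIP3, CCNB2, CYSLTR1, HMOX1, INSIG2, KRT18, MAF, NCAM1, QARS1, S100A9, SAMD9, SPRY2, TXNIP and ZEB2, and without variance trend and robust fitting APLP2, ATF3, CANX, HMOX1, KRT18, MAF, PSAP, PTGER4, QARS1, SAMD9, SPRY2, TPP1, TXNIP, YBX1 and ZEB2.

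Calls against vehicle of named genes were lost without osimertinib replicate 1 for ACSL5, ALOX5, ATF3, BID, BNIP3, CTSO, ETFDH, GAPDH, HMOX1, INSIG2, INSR, IRAK3, KRT18, MAF, MIR98, PTGER4, QARS1, RRAGA, SAMD9, SPRY2, TICAM1, TXN, TXNIP, YBX1 and ZNF740. Calls were lost without osimertinib replicate 2 for ALOX5, BNIP3, CCNB2, CYSLTR1, DDX56, DUSP5, ERBB4, HMOX1, INSIG2, IRAK3, MAF, MIR98, NCAM1, PTGER4, RRAGC, S100A9, SAMD9, SPRY2, TPP1, TXNIP, YBX1, ZEB2 and ZNF740. They were lost without osimertinib replicate 3 for ALOX5, ATF3, BNIP3, CYSLTR1, IRAK3, LTB4R, MCOLN1, NCAM1, QARS1, S100A9, SAMD9, TPP1, YBX1, ZEB2 and ZNF740. They were lost without vehicle replicate 1 for ALOX5, ATF3, HMOX1, INSIG2, INSR, IRAK3, KRT18, LTB4R, MAF, MIR98, NCAM1, PTGER4, S100A9, SAMD9, TICAM1, TXN, TXNIP, YBX1, ZEB2 and ZNF740. They were lost without vehicle replicate 2 for ACSL5, ALOX5, BNIP3, CCNB2, DDX56, GAPDH, INSIG2, IRAK3, KRT18, MAF, MCOLN1, NCAM1, QARS1, RRAGA, S100A9, SAMD9, SPRY2, TPP1, TXN, YBX1 and ZNF740. They were lost without vehicle replicate 3 for ATF3, BID, BNIP3, CCNB2, CCR1, CYSLTR1, ERBB4, HMOX1, MCOLN1, NCAM1, PTGER4, QARS1, S100A9, SPRY2, TPP1, TXNIP, YBX1, ZEB2 and ZNF740.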

Other observations

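Cell surface proteins of the tetraspanin and adhesion list were higher in 5 of 18 tested members and lower in 1. CD82, which clusters integrins, rose by 1.10, TSPAN14, a partner of the protease ADAM10, by 0.82, ICAM3 by 0.63 and the late endosome marker CD63 by 0.31, and CD58, the ligand of CD2, fell by 0.49. TSPAN3 was counted as higher from its brightest row (0.63), and the mean of its rows gave -0.63. Among growth and angiogenic factors, 3 of 16 rose and 3 fell. NAMPT, which makes NAD from nicotinamide, rose from 6.09, 6.89 and 6.56 to 7.57, 7.51 and 7.45, with no overlap. SMAD7, the inhibitor of TGF-beta signalling, rose from 6.61, 6.52 and 6.61 to 7.57, 7.55 and 7.47, and was the sole member called of 7 tested TGF-beta targets.

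The list of leukotriene and prostaglandin genes, which holds synthesis genes and receptors, had 2 of 13 tested members higher and 3 lower. Over all tested genes these shares were 16.9% and 13.7%, and so few members show no lean. The 5-lipoxygenase partner ALOX5AP fell by 0.92, ALOX5 by 0.32 and the leukotriene receptor CYSLTR1 by 0.43, whereas PTGES3 rose by 0.55 and the prostaglandin receptor PTGER4 by 0.21. ALOX5, CYSLTR1 and PTGER4 were array-dependent, and the count of lower members was 1 without osimertinib replicate 2 and 1 without osimertinib replicate 3. Of 9 tested targets of the glucocorticoid receptor DUSP1, ANXA1 and KLF9 (0.93) rose and ALOX5AP fell.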
